A study of Homo sapiens with 6 samples.

Results

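The PI3K, AKT, mTOR and FOXO genes form the route by which growth factor and nutrient signals set cell growth. The set examined here holds 39 genes, listed by name for their place in the route, with earlier results of these data known, out of 58219 gene identifiers counted. RNA came from SNU-387, an established human liver cancer line from a pleomorphic hepatocellular carcinoma of grade IV/V, and was sequenced from poly(A) libraries of a stranded kit. The control group stably expressed a non-target short hairpin RNA (shNT, n = 3) and the other group a hairpin against YES1, which encodes a SRC-family tyrosine kinase (shYES1, n = 3), and the question of the design is how expression differs when YES1 is lowered. Separate cultures are not stated in the labels, so each p-value covers only sample-to-sample spread that can be technical. Beyond counting noise that spread was small, at 2.1% of the level (common value of the edgeR fit). The labels also give no hairpin sequence, no number of hairpins and no word on cloning.

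In this route, phosphoinositide 3-kinases (PI3K) make a membrane lipid that recruits the kinases PDK1 and AKT. AKT inhibits the FOXO transcription factors and the TSC complex, which otherwise keeps the GTPase RHEB off, and active RHEB switches on mTORC1, the complex of mTOR with RAPTOR that drives protein synthesis through the S6 kinases. Amino acids act in parallel, through RAG GTPases that the Ragulator complex holds on the lysosome. In liver the route governs the response to insulin, and it is often overactive in liver cancer.

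Gene reads per library ran from 11290889 to 18944148. YES1 RNA, the target, was 177.7, 180.9 and 180.0 CPM (read counts scaled to the size of each library) in shNT and 42.9, 43.3 and 46.0 CPM in shYES1 (log2 fold change -2.02, SE 0.0371, edgeR adjusted p = 7.93e-40). Of 7 liver epithelial markers, HNF4A and TTR had no read in any library, and ALB, APOA1 and AFP had 0 to 8 reads per library. The keratin genes KRT8 and KRT18 were expressed and rose in shYES1 (0.55 and 0.38), so the summed CPM of the list was 763 to 772 in shNT and 1069 to 1090 in shYES1. The summed CPM of 8 blood, endothelial and stromal markers was 83.6 to 92.1 in shNT and 69.8 to 72.0 in shYES1. PDGFRB (1.33) and VWF (2.09, at 3 to 33 reads per library) were higher. DCN (-1.43), ACTA2 (-0.59) and PECAM1 (-0.30) were lower, and CDH5 did not pass (-0.08). The blood markers PTPRC and CD68 had 2 to 14 and 0 to 4 reads per library, too few to test. Another annotated gene covers 81.7% of the CD68 exon length on the same strand, so CD68 can be read too low. None of the 8 was at 0 in all libraries. The part of these shifts in the results below was not tested.

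Of the 39 genes, 37 had enough reads to test, and PIK3R2 and DEPTOR did not. At an edgeR adjusted p under 0.05, 15 were higher in shYES1, 10 were lower and 12 did not pass. That is 67.6% of the 37, where 65.3% of all 14239 genes tested were called (32.5% higher and 32.8% lower), so the number of calls is close to that of the transcriptome. The median log2 fold change of the 37 was 0.09, beside -0.005 over all genes, and their median size was 0.23, beside 0.30. In 26 of the 37 (70.3%) the groups did not overlap, 15 with shYES1 above and 11 below, beside 67.9% of all genes (33.9% above and 34% below). A change of at least 1.5-fold was called for 9 members (24.3%, beside 22.8% of all genes). PIK3R3, FOXO4, PIK3CB and PIK3CA were the 4 higher ones (8.48% of all genes) and PHLPP1, RPS6KB1, RRAGA, SGK1 and RRAGD the 5 lower ones (14.4%). Against a minimum change of 1.2-fold, 14 members passed, 8 higher and 6 lower, beside 36.4% of all genes (16.3% higher and 20.1% lower). With library-size scaling in place of TMM the calls were 17 higher and 9 lower among members, and 5799 higher and 3762 lower among all genes in place of 4623 and 4676. On GRCh38 in GENCODE 29, with the strand in parentheses, the 4 higher genes lie as PIK3R3 at chr1:46040140-46133036 (minus), FOXO4 at chrX:71096197-71103535 (plus), PIK3CB at chr3:138652699-138834938 (minus) and PIK3CA at chr3:179148114-179240093 (plus). The 5 lower genes lie as PHLPP1 at chr18:62715450-62980433 (plus), RPS6KB1 at chr17:59893046-59950564 (plus), RRAGA at chr9:19049395-19050983 (plus), SGK1 at chr6:134169246-134318112 (minus) and RRAGD at chr6:89364636-89412270 (minus). Values are summed over all exons of each gene. In RNA from whole cultures, fewer cells expressing a gene and less RNA per cell cannot be told apart.

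**Figure D1:**
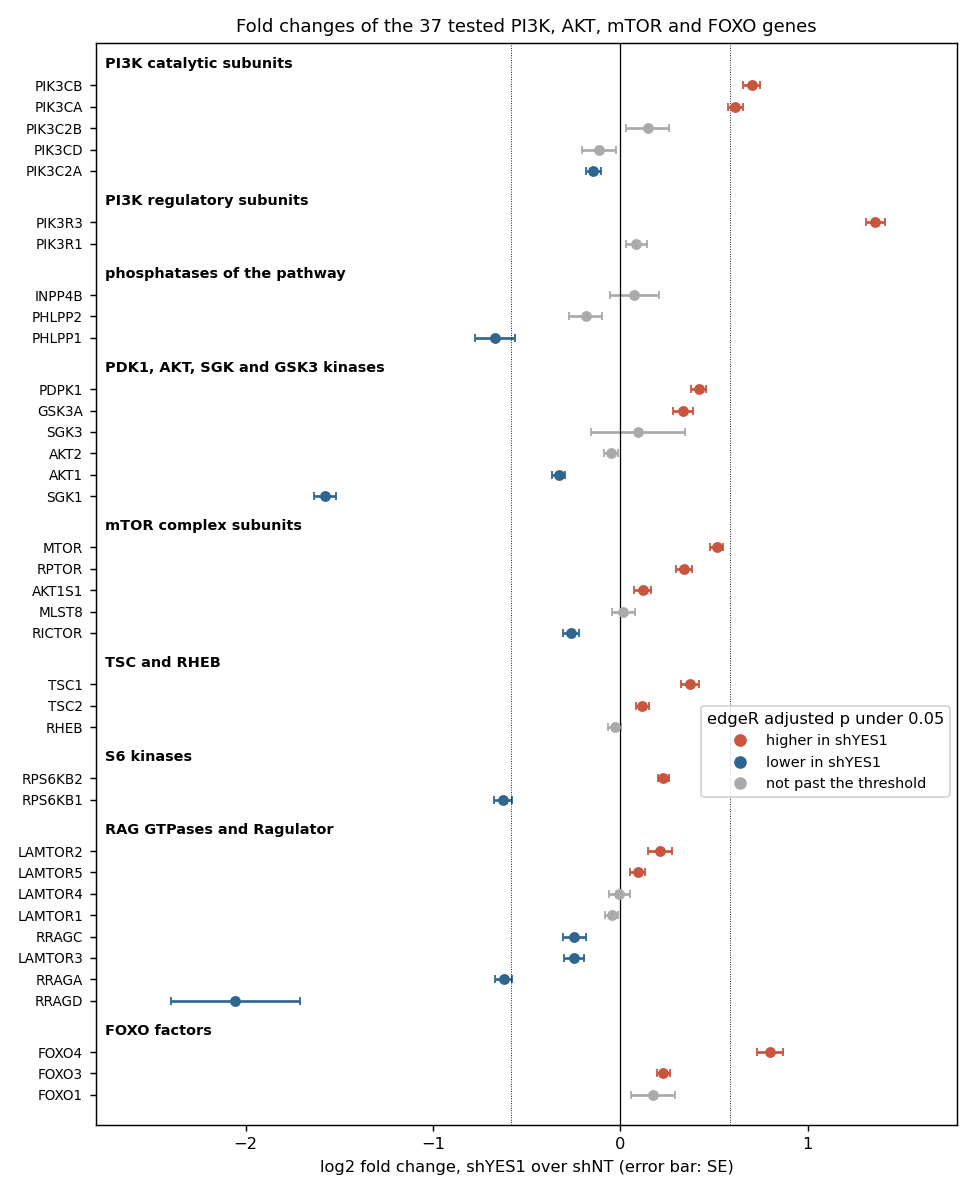
Log2 fold change of each of the 37 tested members, shYES1 over shNT (x axis), grouped by role, with the SE as error bar and dotted lines at 1.5-fold. PIK3R3 lies farthest to the right (1.36) and RRAGD (-2.06) and SGK1 (-1.57) farthest to the left.

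Of the 4 members that rose at least 1.5-fold, PIK3R3, PIK3CB and PIK3CA encode class IA PI3K subunits. PIK3R3 encodes p55-gamma, a regulatory subunit that binds phosphotyrosine and holds the catalytic subunit at receptors. Its level was 27.7, 26.6 and 28.3 CPM in shNT and 68.9, 70.8 and 72.9 CPM in shYES1, a 2.57-fold rise (log2 fold change 1.36, SE 0.0496, edgeR adjusted p = 6.32e-28). All shYES1 libraries lay far above all shNT libraries. PIK3R1, which encodes the p85-alpha, p55-alpha and p50-alpha subunits, was 30.6, 31.6 and 32.4 CPM in shNT and 32.9, 34.9 and 33.2 CPM in shYES1. Its groups did not overlap, but the difference of 0.09 on the log2 scale did not pass (edgeR adjusted p = 0.172), and it passed only with library-size scaling (0.18, adjusted p = 0.00364). Among these regulatory genes PIK3R3 therefore took 56.0 ± 0.86% (SD, n = 3) of the summed RPKM (CPM per kilobase of exon) in shNT and 75.4 ± 0.75% in shYES1.

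PIK3R2, the gene of p85-beta, could not be measured. It was listed with 0 to 3 reads per library. An annotated read-through gene, AC007192.1, covers 87.2% of its exon length on the same strand and itself had 0 to 1 reads, and the files put reads that overlap several genes in an entry for ambiguous reads. PIK3R3, RRAGC and GSK3A also overlap an annotated gene on their strand (17.4%, 22.9% and 11.6% of their exon length), so their levels can be read too low.

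The catalytic genes PIK3CA and PIK3CB, for p110-alpha and p110-beta, rose by similar amounts. PIK3CA was 59.5, 54.9 and 54.1 CPM in shNT and 85.9, 82.6 and 88.1 CPM in shYES1 (log2 fold change 0.62, SE 0.0422, edgeR adjusted p = 1.39e-17). PIK3CB was 57.4, 52.7 and 51.8 CPM in shNT and 87.0, 92.0 and 84.6 CPM in shYES1 (0.70, SE 0.0433, edgeR adjusted p = 3.4e-19). For each gene all shYES1 libraries lay above all shNT libraries. The ratio of PIK3CA to PIK3CB per length was 0.858 to 0.863 in shNT and 0.742 to 0.861 in shYES1, a difference of -0.10 on the log2 scale with overlapping groups (exact two-sided permutation p = 0.2, where 0.1 is the smallest that 3 against 3 can give). PIK3CD, for p110-delta, an isoform best known from white blood cells, was the lowest of the 3 class IA catalytic genes per length and did not pass (12.52, 11.96 and 12.86 CPM in shNT, 12.91, 10.27 and 11.14 CPM in shYES1, edgeR adjusted p = 0.283). Its share of the summed class IA catalytic RPKM was 13.3 ± 0.75% in shNT and 8.20 ± 0.93% in shYES1.

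The class II enzymes, which make other phosphoinositides for membrane traffic, moved little. PIK3C2A was 69.32 to 74.96 CPM in shNT and 65.35 to 66.35 CPM in shYES1 (-0.14, edgeR adjusted p = 0.00191), a call lost with library-size scaling (-0.05, adjusted p = 0.308) with DESeq2 (adjusted p = 0.0533) and against 1.2-fold. PIK3C2B, at 6.21 to 7.72 CPM over all libraries, did not pass (edgeR adjusted p = 0.266).

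**Figure D2:**
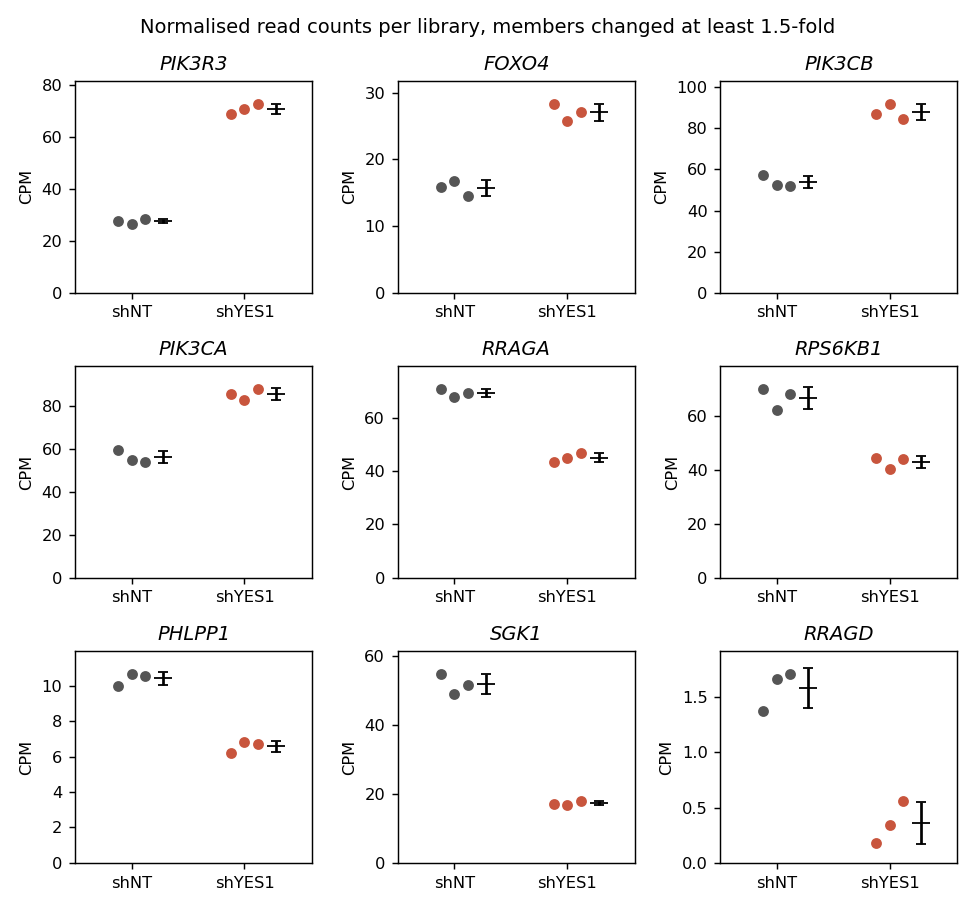
Normalised read counts (CPM, linear axis from 0) of the 9 members called with at least a 1.5-fold change, 1 point per library, with mean and SD beside each group. In every panel the 3 shYES1 points lie apart from the 3 shNT points, for example 68.9 to 72.9 against 26.6 to 28.3 for PIK3R3.

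The phosphatase genes of the set, PHLPP1, PHLPP2 and INPP4B, whose products end the signal, were low and gave 1 call. PHLPP1, which removes the activating phosphate from AKT, was 10.02, 10.7 and 10.6 CPM in shNT and 6.21, 6.84 and 6.69 CPM in shYES1 (log2 fold change -0.67, SE 0.105, edgeR adjusted p = 2.72e-07). Its paralog PHLPP2 was 12.8, 12.6 and 13.1 CPM in shNT and 10.5, 11.5 and 11.9 CPM in shYES1, where the groups did not overlap but the change of -0.18 missed the threshold (edgeR adjusted p = 0.0652). It passed when shYES1 sample 3 was left out (-0.24, adjusted p = 0.0444). The ratio of PHLPP1 to PHLPP2 per length went from 1.07 to 1.16 in shNT to 0.768 to 0.816 in shYES1 (exact permutation p = 0.1, the smallest possible). INPP4B, a lipid phosphatase, was 4.93 to 6.33 CPM over all libraries and did not pass (edgeR adjusted p = 0.632).

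Among the PDK1, AKT and SGK genes of the set, PDPK1 rose, SGK1 and AKT1 fell, and AKT2 and SGK3 did not pass. PDPK1 encodes PDK1, which phosphorylates the activation loop of AKT, SGK and S6 kinases, and was 58.9, 58.1 and 57.6 CPM in shNT and 75.7, 82.8 and 76.0 CPM in shYES1 (0.42, SE 0.0423, edgeR adjusted p = 4.39e-12). A near-identical copy, PDPK2P, had 0 to 1 reads per library, and the files set reads that fit several places apart, so the level of PDPK1 is uncertain. AKT1 was 149, 153 and 153 CPM in shNT and 125, 120.2 and 117 CPM in shYES1, a fall of 1.26-fold (-0.33, SE 0.0327, edgeR adjusted p = 2.61e-12). AKT2, linked to insulin-driven glucose uptake, was 90.7 to 93.9 CPM in shNT and 87.5 to 93.1 CPM in shYES1 (-0.05, edgeR adjusted p = 0.259), and the sign of this difference turned with library-size scaling (0.05).

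Compared per length of all annotated exons, the ratio of AKT1 to AKT2 was 2.18, 2.20 and 2.28 in shNT and 1.92, 1.74 and 1.81 in shYES1 (exact permutation p = 0.1, the smallest possible, and 0.129 adjusted over the 9 ratios computed). All shYES1 ratios lay below all shNT ratios. AKT1 thus made up 68.9 ± 0.50% (SD, n = 3) of the RPKM of AKT1 and AKT2 together in shNT and 64.6 ± 1.15% in shYES1. With the longest transcript as length its share was 51.0 ± 0.58% and 46.1 ± 1.25%, so which of AKT1 and AKT2 has the higher level depended on the length used, while the direction of the difference between groups did not.

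**Figure D3:**
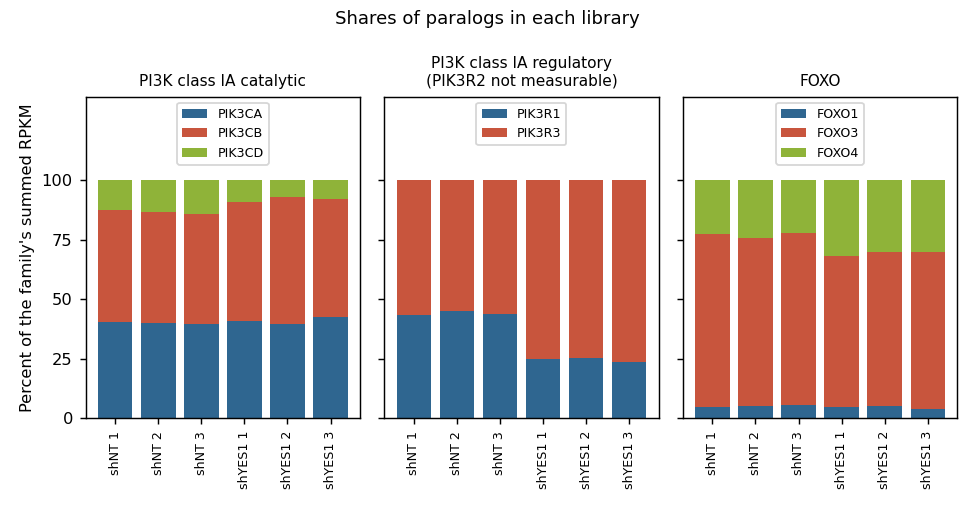
Share of each paralog in its family's summed RPKM (y axis, percent, length taken as the union of exons) in each of the 6 libraries. PIK3R3 and FOXO4 take larger shares in all 3 shYES1 libraries (75.4% and 30.6% on average) than in shNT (56.0% and 23.0%), while PIK3CA lies between 39.5% and 42.5% in every library.

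SGK1, a kinase related to AKT that is made and destroyed quickly and responds to glucocorticoids and osmotic stress, showed the largest fall among well-expressed members. It was 54.9, 49.1 and 51.6 CPM in shNT and 17.17, 16.77 and 17.98 CPM in shYES1, 2.98-fold lower (log2 fold change -1.57, SE 0.0593, edgeR adjusted p = 2.31e-27). All shNT libraries lay far above all shYES1 libraries. SGK3, which binds endosomal lipid, was 0.97 to 1.74 CPM over all libraries and did not pass (edgeR adjusted p = 0.761). GSK3A, a kinase that AKT inhibits, was 39.5, 36.2 and 36.6 CPM in shNT and 49.8, 46.0 and 45.6 CPM in shYES1 (0.34, edgeR adjusted p = 2.43e-07), and the call was lost against a minimum change of 1.2-fold (adjusted p = 0.0721).

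Among the mTOR complex genes, MTOR and RPTOR were higher and RICTOR was lower. MTOR, the shared kinase, was 107, 103 and 97.9 CPM in shNT and 143, 148 and 148 CPM in shYES1 (log2 fold change 0.51, SE 0.0345, edgeR adjusted p = 6.61e-18). RPTOR, for RAPTOR of mTORC1, was 52.0, 54.0 and 51.8 CPM in shNT and 68.2, 64.1 and 66.9 CPM in shYES1 (0.34, edgeR adjusted p = 2.41e-09). RICTOR, of mTORC2, the complex that phosphorylates AKT and SGK, was 72.9, 74.0 and 68.4 CPM in shNT and 59.1, 58.7 and 61.0 CPM in shYES1 (-0.26, edgeR adjusted p = 5.33e-07). For RPTOR and RICTOR the groups stood apart in opposite directions. Their ratio per length was 0.938, 0.959 and 0.997 in shNT and 1.52, 1.44 and 1.44 in shYES1, a difference of 0.60 on the log2 scale that scaling between libraries cannot change (exact permutation p = 0.1, the smallest possible). The RICTOR call was lost against a minimum change of 1.2-fold (adjusted p = 0.492), while MTOR and RPTOR passed that test (1.97e-09 and 0.0314). MAPKAP1, for another subunit of mTORC2 and outside the set, was higher (0.43), so the mTORC2 genes did not share a direction.

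MLST8, a subunit of each complex, was 30.8 to 35.5 CPM in shNT and 31.5 to 34.6 CPM in shYES1 and did not pass (edgeR adjusted p = 0.814). AKT1S1, for PRAS40, an AKT substrate that restrains mTORC1, was 61.8, 59.9 and 64.1 CPM in shNT and 69.4, 69.5 and 64.2 CPM in shYES1, with the lowest shYES1 library almost at the highest shNT library (0.12, edgeR adjusted p = 0.0147). That call was lost with DESeq2 (adjusted p = 0.0772), without shNT sample 2 (0.0919), without shYES1 sample 1 (0.0799), without shYES1 sample 2 (0.0559) and against 1.2-fold. DEPTOR, an mTOR inhibitor, had 2 to 5 reads per library, too few to compare.

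**Figure D4:**
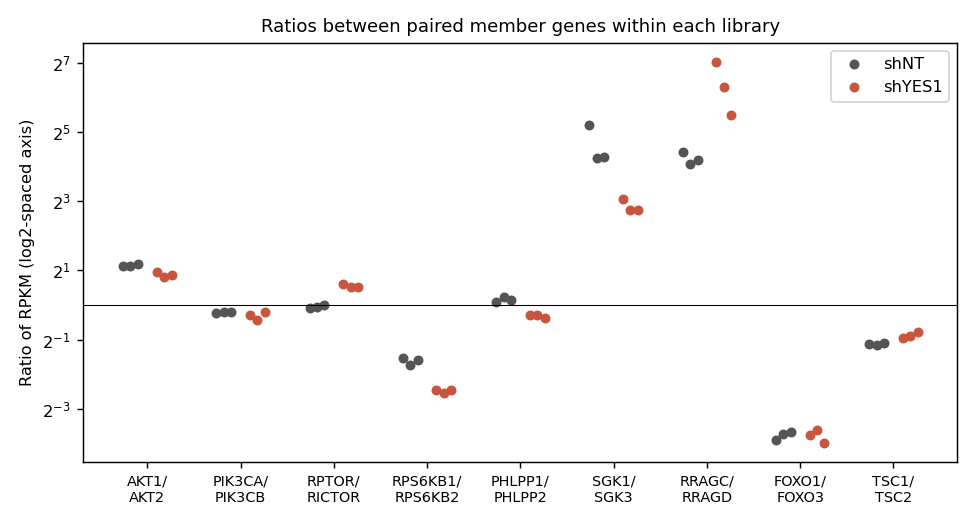
Ratio of RPKM between paired member genes within each library (y axis, log2-spaced), 3 points per group. The ratios of RPTOR to RICTOR and RRAGC to RRAGD are higher in all 3 shYES1 libraries, those of RPS6KB1 to RPS6KB2, PHLPP1 to PHLPP2, SGK1 to SGK3 and AKT1 to AKT2 are lower in all 3, and FOXO1 to FOXO3 overlaps.

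Genes of the TSC complex rose slightly. TSC1, which stabilises the complex, was 49.0, 45.3 and 46.8 CPM in shNT and 58.6, 58.5 and 64.2 CPM in shYES1 (log2 fold change 0.37, edgeR adjusted p = 2.86e-09). TSC2, which turns RHEB off, was 120.0, 113 and 111 CPM in shNT and 127, 122 and 124 CPM in shYES1 (0.12, edgeR adjusted p = 0.00247), and did not pass against 1.2-fold. TSC1 relative to TSC2 was 0.446 to 0.468 per length in shNT and 0.514 to 0.577 in shYES1 (exact permutation p = 0.1, the smallest possible). RHEB itself, the activator of mTORC1, was 158, 171 and 165 CPM in shNT and 169, 161 and 154 CPM in shYES1, with overlapping groups (-0.03, edgeR adjusted p = 0.445). Its RPKM, 46.5 ± 1.91 in shNT and 45.65 ± 2.15 in shYES1, stood at the 94.2 percentile of tested genes. A copy of RHEB, RHEBP1, had 4 to 10 reads per library, so the level of RHEB is uncertain in the same way as that of PDPK1.

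The S6 kinases, which phosphorylate ribosomal protein S6 and eIF4B, moved in opposite directions. RPS6KB1 was 70.1, 62.3 and 68.2 CPM in shNT and 44.6, 40.5 and 44.0 CPM in shYES1 (log2 fold change -0.63, SE 0.0481, edgeR adjusted p = 6.86e-16). RPS6KB2 was 154, 157 and 157 CPM in shNT and 184, 181 and 184 CPM in shYES1 (0.23, SE 0.0298, edgeR adjusted p = 4.18e-09), which did not pass against 1.2-fold. RPS6KB2 was the more abundant per length in each group. The ratio of RPS6KB1 to RPS6KB2 was 0.344, 0.300 and 0.329 in shNT and 0.183, 0.170 and 0.182 in shYES1 (difference -0.86 on the log2 scale, exact permutation p = 0.1, the smallest possible).

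At the lysosome, RRAGA, RRAGC and RRAGD fell, and no Ragulator gene was called with a 1.5-fold change. RAG GTPases work as pairs of RAGA or RAGB with RAGC or RAGD that bring mTORC1 to the lysosome when amino acids are present. RRAGA was 70.9, 67.8 and 69.4 CPM in shNT and 43.3, 45.0 and 46.6 CPM in shYES1 (log2 fold change -0.62, SE 0.0447, edgeR adjusted p = 7.31e-17). RRAGC was 30.2, 28.8 and 32.1 CPM in shNT and 24.3, 27.6 and 25.6 CPM in shYES1 (-0.25, edgeR adjusted p = 0.000526), not past 1.2-fold. RRAGD was rare, with 17, 22 and 27 reads in shNT and 3, 4 and 11 reads in shYES1, or 1.37, 1.66 and 1.71 CPM against 0.183, 0.342 and 0.562 CPM (-2.06, SE 0.344, edgeR adjusted p = 1.02e-06). Its fold change is the least precise of the set, from -2.64 without shYES1 sample 3 to -1.72 without shYES1 sample 1. RRAGB, the remaining RAG gene and not one of the 39, was at 11.4 ± 2.08 CPM in shNT and 13.1 ± 0.27 CPM in shYES1 with overlapping groups (0.22, edgeR adjusted p = 0.0462). Its call was lost with DESeq2 (adjusted p = 0.242), against 1.2-fold, and without shNT sample 1 (0.169) or 3 (0.345) or shYES1 sample 1 (0.0639), 2 (0.074) or 3 (0.123). Of the summed RAG RPKM, RRAGA held 80.8 ± 1.14% in shNT and 74.1 ± 0.61% in shYES1. With the longest transcript as length it held 72 ± 1.17% and 64 ± 0.84%, so the size of the share depended on the length used, while the direction did not.

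Ragulator, the LAMTOR1 to LAMTOR5 complex that anchors the RAG proteins, had calls in both directions. LAMTOR1, its membrane anchor, had the highest RPKM of all 39 genes over the 6 libraries (94.7 percentile of tested genes). It was 131, 145 and 140 CPM in shNT and 134, 133 and 136 CPM in shYES1, with overlapping groups (-0.05, edgeR adjusted p = 0.241). It passed without shNT sample 1 (-0.09, adjusted p = 0.0261), and its sign turned with library-size scaling (0.05). LAMTOR2 was 22.2 to 24.6 CPM in shNT and 26.1 to 29.1 CPM in shYES1 (0.21, edgeR adjusted p = 0.00371). LAMTOR3 was 38.1 to 41.4 CPM in shNT and 32.7 to 34.7 CPM in shYES1 (-0.25, edgeR adjusted p = 7.84e-05). Against 1.2-fold neither LAMTOR2 (adjusted p = 0.824 with edgeR) nor LAMTOR3 (0.602) passed. LAMTOR4 was 31.9 to 35.5 CPM over all libraries (-0.01, edgeR adjusted p = 0.928). LAMTOR5 was 74.8 to 79.5 CPM in shNT and 77.6 to 84.8 CPM in shYES1 with overlapping groups (0.09, edgeR adjusted p = 0.0356). The LAMTOR5 call was lost with DESeq2 (adjusted p = 0.156), with unstranded counts (0.0949), without shNT sample 1 (0.0906) or 2 (0.146), without shYES1 sample 1 (0.183) or 3 (0.095), and against 1.2-fold.

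Several genes of this route are known targets of TFEB and TFE3, factors that mTORC1 keeps out of the nucleus and that bind the CLEAR element. TFEB RNA rose from 15.1 ± 0.41 to 23.2 ± 0.39 CPM (0.62, edgeR adjusted p = 1.51e-10) and TFE3 from 127 ± 3.12 to 145 ± 2.70 CPM (0.19, edgeR adjusted p = 1.08e-06), the latter not past 1.2-fold. MITF, a related factor that binds the same element, fell from 28.7 ± 0.52 to 21.9 ± 1.69 CPM (-0.40, edgeR adjusted p = 4.62e-07). The 250 bases before each RefSeq transcription start (GRCh38.p14) were searched for CACGTG, the palindromic core of that element, and for the FOXO sequence TGTTTAC, on both strands, and the letters of these motifs do not overlap. SGK3, MLST8, AKT1S1, DEPTOR, RRAGA and RRAGD had no promoter sequence and could not be searched. CACGTG was found in 5 of the 33 members with a promoter sequence (15.2%), beside 7.73% of 27305 genes, and TGTTTAC in 1 (3.03%, beside 3.66%). A gene counted if any of its listed starts had a match. The 27305 genes include ones with too few reads to test here, while nearly all members were tested, so the shares compare unlike sets. The 30 bases around the match are shown for these 6 genes, so that the matches can be compared, 5′ to 3′ on the gene's strand with the motif in capitals. The first 5 match CACGTG and the last TGTTTAC.
RRAGC (chr1:38859867-38859896, minus strand): aggtgattccggCACGTGacggggcaccac
TSC2 (chr16:2047859-2047888, plus strand): atgcggccccgtCACGTGatgcaaggatcg
LAMTOR1 (chr11:72103445-72103474, minus strand): ctttccccgcatCACGTGcttgcgtgtacg
LAMTOR4 (chr7:100148888-100148917, plus strand): gcgcagcggctgcaagCACGTGaccggggc
INPP4B (chr4:142405483-142405512, minus strand): tcagctccacagCACGTGacttcctatttc
PIK3CA (chr3:179148197-179148226, plus strand): agttcgttgttTGTTTACacgatgtgagcg

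The 5 genes with CACGTG did not share a direction. RRAGC was lower, TSC2 was higher, and LAMTOR1, LAMTOR4 and INPP4B did not pass. PIK3CA, with the FOXO sequence, was higher. A match in these letters is a description and shows no binding.

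The FOXO factors, which AKT keeps in the cytoplasm, were higher or did not pass. FOXO4 was 15.8, 16.8 and 14.5 CPM in shNT and 28.4, 25.8 and 27.1 CPM in shYES1, 1.74-fold higher (log2 fold change 0.80, SE 0.0706, edgeR adjusted p = 7.47e-14). FOXO3 was 113, 109 and 107 CPM in shNT and 128, 124 and 132 CPM in shYES1 (0.23, SE 0.0342, edgeR adjusted p = 9.56e-08), not past 1.2-fold. A copy of FOXO3, FOXO3B, had 5 to 18 reads per library, so the level of FOXO3 is uncertain in the same way. FOXO1, the main FOXO factor of liver glucose production, was 6.14, 6.66 and 6.78 CPM in shNT and 7.61, 8.13 and 6.74 CPM in shYES1, with overlapping groups (0.17, edgeR adjusted p = 0.191), and passed only with library-size scaling (0.27, adjusted p = 0.0384). FOXO3 held most of the summed FOXO RPKM, 71.7 ± 1.15% in shNT and 64.7 ± 1.04% in shYES1, and FOXO4 23.0 ± 1.18% and 30.6 ± 0.90%. The ratio of FOXO1 to FOXO3 overlapped between groups (exact permutation p = 0.9).

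The rest of the pathway was read from 5 lists of 98 genes, of which SAMTOR was not matched to an identifier and 83 were tested. Of the 83, 35 were higher and 29 lower in shYES1, or 77.1% called beside the 65.3% of all genes, with a median log2 fold change of 0.05. These are counts and not a test of the lists, and the genes named are mainly the largest called changes at a mean of at least 5 CPM.

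Among other PI3K and phosphoinositide genes, 8 of the 13 tested rose, 2 fell and 3 missed the threshold (76.9% called, median 0.23). The largest rise was that of PIK3IP1, a membrane protein that inhibits the PI3K catalytic subunit, from 20.1 ± 0.47 to 44.7 ± 2.77 CPM (1.17, edgeR adjusted p = 3.72e-22). INPP5F, an inositol phosphatase gene, rose from 23.8 ± 2.21 to 40.2 ± 3.95 CPM (0.76), and the adaptor gene GAB2 rose (0.40). PIK3R4, for a subunit of the class III complex in autophagy, fell from 51.8 ± 0.82 to 37.7 ± 1.19 CPM (-0.46). The adaptor gene GAB1 was lower (-0.21, edgeR adjusted p = 0.0295), a call lost without shNT sample 1 (0.0953) or 3 (0.0933), without shYES1 sample 2 (0.0987), with DESeq2 (0.221), with library-size scaling (0.238), without a low-count filter (0.0891) and against 1.2-fold.

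For AKT, GSK3 and mTORC2 genes outside the 39, 7 of 13 rose, 2 fell and 4 missed the threshold (69.2% called, median 0.14). GSK3B rose from 87.4 ± 3.57 to 123 ± 3.51 CPM (0.49) and MAPKAP1, for the mTORC2 subunit SIN1, from 64.6 ± 1.13 to 86.9 ± 2.75 CPM (0.43). MAPKAP1 and RICTOR, which encode subunits of the same complex, thus changed in opposite directions. TRIB3, a pseudokinase that binds AKT and a stress-response gene, fell from 64.2 ± 5.22 to 35.4 ± 0.11 CPM (-0.86), and FKBP5, a glucocorticoid-induced chaperone gene, fell (-0.40).

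Amino acid sensing genes gave 6 rises and 8 falls among 23 tested, with 9 not past (60.9% called, median 0.01). SLC38A9, for a lysosomal arginine sensor that acts on the RAG proteins, fell from 24.7 ± 1.802 to 16.7 ± 0.98 CPM (-0.56, edgeR adjusted p = 2.85e-09). TBC1D7, for the third subunit of the TSC complex, rose from 18.5 ± 0.884 to 26.3 ± 2.502 CPM (0.50, edgeR adjusted p = 4.15e-08), and the stress-induced leucine sensor gene SESN2 rose (0.35), though not past 1.2-fold (edgeR adjusted p = 0.113). In the GATOR2 complex, which relieves inhibition of the RAG proteins, WDR24 (0.26, edgeR adjusted p = 0.0116) and WDR59 (0.25, adjusted p = 0.000155) were higher, and SEH1L (-0.28), MIOS (-0.24, adjusted p = 0.00451) and SEC13 (-0.11, adjusted p = 0.000556) lower. None of these 5 passed against 1.2-fold, and the SEC13 call was also lost with library-size scaling (-0.01, adjusted p = 0.702). The WDR24 call was lost without shNT sample 3 (0.15, adjusted p = 0.199), with DESeq2 (0.122) and with unstranded counts (0.177). The MIOS call was lost without shNT sample 3 (adjusted p = 0.0899), without shYES1 sample 3 (0.0829), with DESeq2 (0.111) and with library-size scaling (0.0891).

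Of 16 mTORC1 substrates and effectors, 7 rose, 8 fell and 1, MAF1, did not pass (93.8% called, beside 65.3% of all genes, median -0.20). MAF1, at -0.07 (edgeR adjusted p = 0.168), passed without shYES1 sample 1 (-0.12, adjusted p = 0.023). EIF4EBP1, for 4E-BP1, which blocks cap-dependent translation until mTORC1 phosphorylates it, fell from 20.8 ± 0.61 to 10.8 ± 0.73 CPM (-0.95, edgeR adjusted p = 1.72e-14). EIF4B, an S6 kinase substrate in translation initiation, fell from 518 ± 12.1 to 292 ± 6.16 CPM (-0.83), and GRB10, an adaptor that restrains insulin signalling, fell (-0.46). Besides TFEB, ULK1, the kinase that starts autophagy, rose from 77.1 ± 1.07 to 109 ± 5.004 CPM (0.50), and LPIN1, for the lipid phosphatase lipin 1, rose (0.36).

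Known FOXO target genes went both ways. Rises numbered 7 and falls 9 among 18 tested, with 2 not past (88.9% called, beside 65.3% of all genes, median -0.10). The cell cycle inhibitor genes CDKN1A, from 34.1 ± 1.17 to 98.1 ± 3.48 CPM (1.52), and CDKN1B, from 78.0 ± 1.25 to 122 ± 2.29 CPM (0.65), rose, as did PINK1, a kinase of mitochondrial quality control (0.83). FBXO32, for the ubiquitin ligase atrogin-1, fell from 205 ± 5.16 to 57.5 ± 1.32 CPM (-1.83), the superoxide dismutase gene SOD2 from 2789 ± 46.7 to 974 ± 4.96 CPM (-1.52) and the mitophagy receptor gene BNIP3 from 434 ± 17.6 to 164 ± 6.26 CPM (-1.40). Some of these answer to other factors as well, CDKN1A to p53, SOD2 to NF-kB and BNIP3 to HIF-1. The gluconeogenic FOXO targets PCK1 and G6PC1 had no read in any library.

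**Figure D5:**
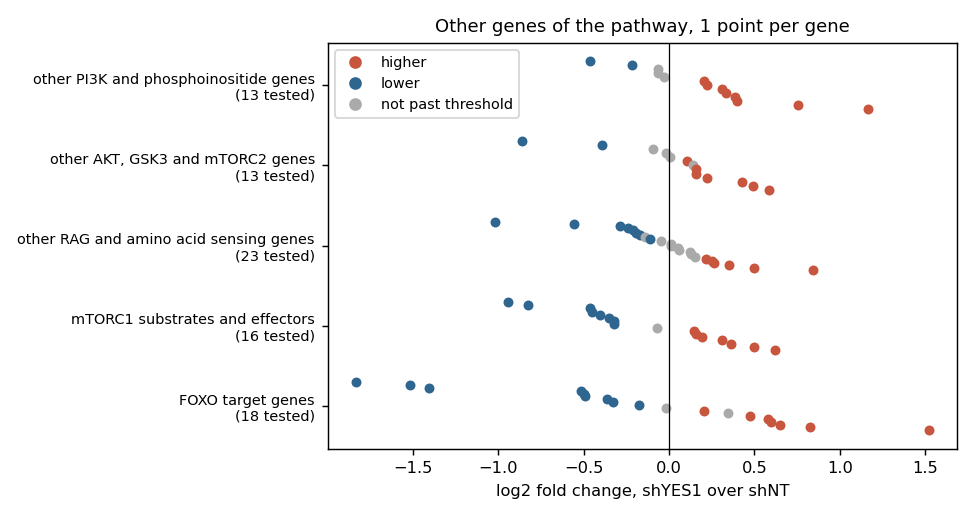
Log2 fold change, shYES1 over shNT (x axis), of each tested gene of the 5 lists of other pathway genes, 1 point per gene, coloured by call at an edgeR adjusted p under 0.05. The FOXO targets spread widest, from FBXO32 at -1.83 to CDKN1A at 1.52. Of the amino acid sensing genes 9 of 23 did not pass, so 60.9% were called, near the 65.3% of all genes. The share called was highest for the mTORC1 substrates and effectors (93.8%), followed by the FOXO targets (88.9%).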

How the data were processed

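The authors deposited read counts per gene, whole numbers without normalization, 1 file per library. Per the submitters' processing notes, CASAVA 1.8.2, Trimmomatic 0.35 and STAR 2.5.1b were used with GRCh38; no annotation release is named in these notes. Column 4 (reverse strand) was used, since 93.45% to 93.97% of stranded gene reads fell on it. The 4 entries that name no gene held 19.8% to 20.32% of reads and were left out. Of 58219 identifiers, 57437 matched a symbol and 57881 are in GENCODE 29, which gave exon lengths. edgeR 4.0.16 (R 4.3.3) tested shYES1 against shNT: filterByExpr (minimum count 10, total 15) kept 14239 genes, with TMM scaling, the robust quasi-likelihood test and Benjamini-Hochberg adjustment over all genes. The SE is the log2 change divided by the square root of F. The fit was also run on simulated data. Few genes changed in them, in random directions and unlike these data, so that run cannot test the scaling. RPKM is CPM per kilobase of the union of exons. Members of at least 1.5-fold, the most abundant of each role, and up to 3 called rises and falls per other list (mean at least 5 CPM) were named, beside others chosen after their values were seen. Members and lists were chosen with earlier results of these data known. Alternatives were other scalings, filters, tools (DESeq2 1.42.0, limma-voom 3.58.1), unstranded counts, a 1.2-fold minimum, the sample number as block and leaving out each library. A gene that the naming rule would give is not reported here.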

Additional observations from a re-analysis of the deposited data

How the results depend on the processing

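Against a minimum change of 1.2-fold, 8 members were higher and 6 lower (15 and 10 without it), beside 2324 and 2861 of all genes and 18 and 19 of the other pathway genes. Under the other alternatives the counts stayed within 1.5 times, with 13 to 17 members higher and 9 to 11 lower, and with 1 library left out 13 to 15 and 10 to 11. Of the 25 called members, 14 kept their call under all 15 alternatives and none changed direction. Library-size scaling moved the median of all genes from -0.005 to 0.092 and turned the sign of AKT2 (0.049), RHEB (0.066), LAMTOR1 (0.051) and LAMTOR4 (0.090), none of them called. Small uncalled differences also changed sign with 1 library left out, with ranges of -0.016 to 0.187 for INPP4B, -0.105 to 0.241 for SGK3, -0.021 to 0.096 for MLST8, -0.067 to 0.008 for RHEB, -0.062 to 0.019 for LAMTOR4 and -0.108 to 0.070 for the FOXO1/FOXO3 ratio (log2). LAMTOR4 was also turned without a low-count filter (0.007) and with unstranded counts (0.006), and MAF1 with library-size scaling (0.027). The cause was not tested. Same-numbered samples deviated from their group means with correlations of 0.0116 to 0.0252 over the genes tested, and differently numbered ones with -0.038 to 0.0248. Spread beyond counting noise was only 2.1% (common value of the edgeR fit), so these correlations cannot tell whether the libraries were paired. With the replicate block 15 members were higher and 10 lower, and 4628 and 4669 of all genes. Ratios to PIK3R2 were planned but could not be computed, since some libraries had 0 reads. Depth limits RRAGD and SGK3, with 3 to 27 and 12 to 34 reads per library.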
